A study of Mus musculus with 12 samples.

Results

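Alb, Ttr, Ahsg and Fabp1 code for proteins that carry other molecules and that are made in quantity by hepatocytes, the main cells of the liver. They were followed here across 12 arrays of RNA labelled as mouse muscle. The members were the probes whose annotated gene symbol is 1 of these 4, which gave 1 probe for each gene, 4 of the 16675 genes with a symbol on the array. The genes were chosen by their intensities in the 4 groups, which were already known, so their levels and differences are given as a description with no test.

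The study asked how the tissue RNA of normal and diabetic mice differs after mcIRBP, a protein of bitter melon (Momordica charantia) that binds the insulin receptor. Each group had 3 arrays. The normal mock group was untreated normal female BALB/c mice, and the normal mcIRBP group was normal female BALB/c mice given 2.5 nmol of mcIRBP. The diabetic mock group was untreated diabetic male BALB/c mice, and the diabetic mcIRBP group was diabetic male BALB/c mice given the same dose. All normal mice were female and all diabetic mice male, so disease state and sex cannot be told apart. How diabetes arose, and the age of the mice, are not given in the sources used here, and whether the 3 arrays of a group came from separate mice is not stated, so the spread between arrays may be partly technical.

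Albumin, the product of Alb, is the main protein of blood plasma and binds fatty acids, hormones, metal ions and drugs. Transthyretin, from Ttr, carries thyroxine and, bound to retinol-binding protein, vitamin A; besides the liver, the choroid plexus of the brain makes it, and islet cells contain it. Fetuin-A, from Ahsg, is a plasma glycoprotein of the cystatin superfamily that keeps calcium phosphate in solution and can inhibit the insulin receptor's tyrosine kinase. Fabp1 encodes the liver fatty acid binding protein, which stays in the cytosol and carries long-chain fatty acids in hepatocytes and in cells of the small intestine. Transcription of such genes in hepatocytes depends on factors such as HNF4A and those of the C/EBP and FOXA families.

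All 4 genes were bright on the 3 normal mock arrays and at or near background on the others. A probe counted as above background when its raw intensity exceeded a threshold set for each array, the mode of its log2 raw intensities plus 5 SD of the values mirrored below the mode. These thresholds lay between 58.3 and 125 raw units. A raw intensity depends on the probe, so values are compared between arrays for 1 gene and not between genes.

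Alb (probe mMC005336, chromosome 5, 90460870 to 90476602 on the plus strand of GRCm38.p6) had raw intensities of 5124, 8155 and 5866 on normal mock replicates 1, 2 and 3. On the normal mcIRBP arrays they were 164, 354 and 171. On the diabetic mock arrays they were 93, 153 and 86, and on the diabetic mcIRBP arrays 39, 38 and 37. In raw units the 4 groups did not overlap, and normal mock was far the highest. Normal mcIRBP and diabetic mock were low but above the threshold on every array, and diabetic mcIRBP was below it on every array. Normal mock replicates were 65.2 to 71.8 times the threshold, normal mcIRBP replicates 2.12 to 3.65 times and diabetic mock replicates 1.48 to 2.57 times. Relative to their thresholds normal mcIRBP and diabetic mock thus overlapped.

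Ttr (probe mMC011315, chromosome 18, 20664209 to 20674326) had raw intensities of 1685, 6162 and 4185 on the normal mock arrays. They were 60, 77 and 67 on the normal mcIRBP arrays, 35, 34 and 34 on the diabetic mock arrays and 34, 34 and 32 on the diabetic mcIRBP arrays. Only the normal mock arrays were above the threshold, at 23.6 to 49.2 times it. Within that group replicate 1 stood well below the other two, and after normalization its log2 level of 12.54 remained under their 13.54 and 13.20.

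Ahsg (probe mMC002930, chromosome 16, 22892015 to 22899451) had raw intensities of 1818, 1508 and 2141 on the normal mock arrays. They were 86, 138 and 72 on the normal mcIRBP arrays, 65, 64 and 48 on the diabetic mock arrays and 47, 73 and 65 on the diabetic mcIRBP arrays. Here each of the 3 low groups had 2 of 3 arrays above the threshold, none by more than 1.42 times, so the probe was at the edge of detection in all of them. Relative to their thresholds the 3 low groups overlapped, at 0.936 to 1.42 times in normal mcIRBP, 0.824 to 1.09 times in diabetic mock and 0.803 to 1.199 times in diabetic mcIRBP, so no order among them is given.

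Fabp1 (probe mMC004039, chromosome 6, 71199879 to 71205034) had raw intensities of 1178, 1911 and 1212 on the normal mock arrays. They were 56, 80 and 65 on the normal mcIRBP arrays, 37, 37 and 36 on the diabetic mock arrays and 38, 37 and 37 on the diabetic mcIRBP arrays. As for Ttr, every array outside the normal mock group was below its threshold. In bulk RNA, fewer cells of a type and less RNA per cell cannot be told apart.

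**Figure D1:**
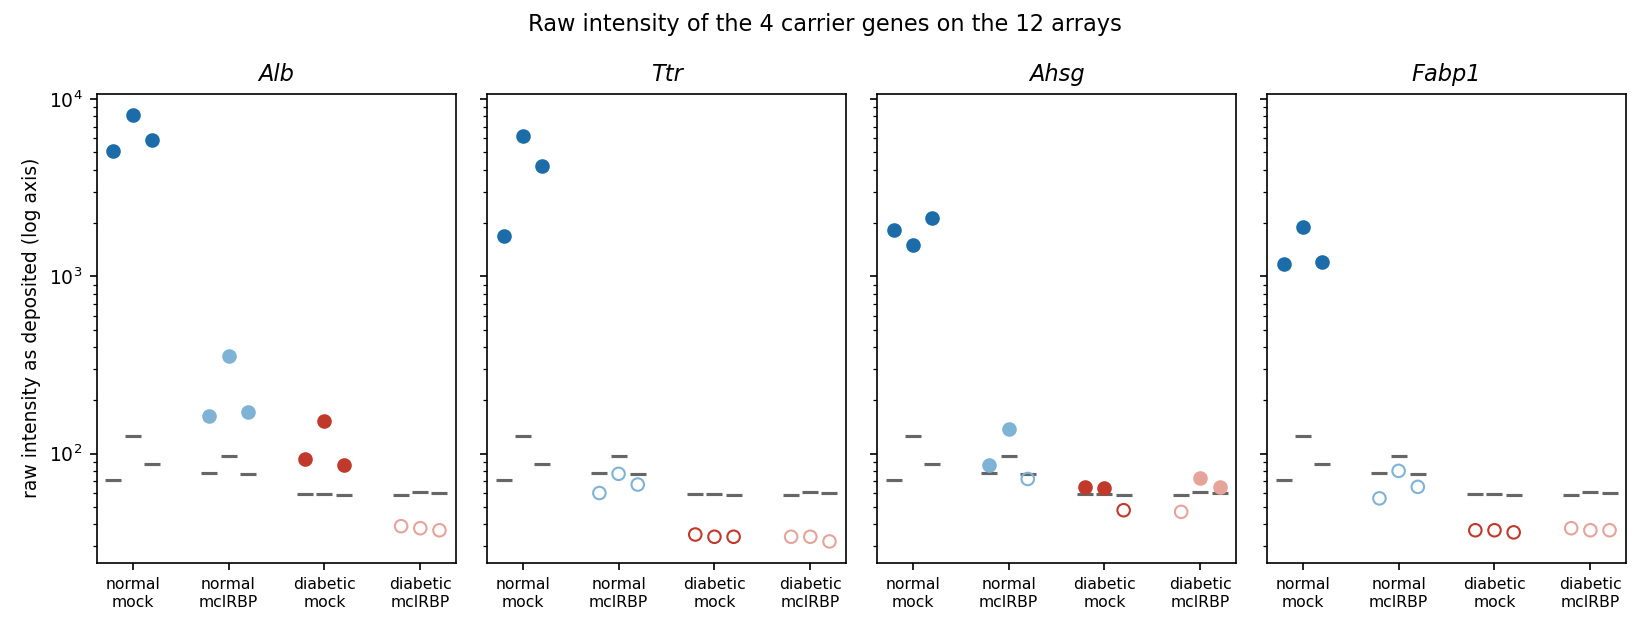
Raw intensity as deposited (log axis) of Alb, Ttr, Ahsg and Fabp1 on the 12 arrays, 1 point per array by group. Filled points are above that array's detection threshold, open points below it, and grey dashes mark the thresholds. On each panel the 3 normal mock points stand above all others, and Alb alone was above the threshold on all normal mcIRBP and all diabetic mock arrays.

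After background correction and quantile normalization of all 12 arrays together, the order of the levels could be set out on the log2 scale. For Alb the group means were 13.77 ± 0.07 in normal mock, 7.88 ± 0.42 in normal mcIRBP, 6.51 ± 0.06 in diabetic mock and 5.83 ± 0.02 in diabetic mcIRBP (SD, n = 3 each). Neighbours in this order did not overlap on this scale, though normal mcIRBP and diabetic mock overlapped relative to their thresholds. For Ttr the normal mock mean was 13.09 ± 0.50 and the other 3 groups, all below the threshold, had no order. The same held for Fabp1, with a normal mock mean of 12.01 ± 0.29. For Ahsg the mean was 12.38 ± 0.38 in normal mock, 6.49 ± 0.43 in diabetic mcIRBP, 6.43 ± 0.14 in normal mcIRBP and 6.04 ± 0.09 in diabetic mock. The 3 low groups, each with 1 array below the threshold, have no clear order.

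In normal mice the mcIRBP arrays were below the mock arrays for all 4 genes, and no array of 1 group reached the other. Over all 29922 probes 2.71% were called lower in this comparison, at a Benjamini-Hochberg adjusted p under 0.05 in limma. Since the contrast helped to choose the genes, nothing is read from that share. The Alb difference on the log2 scale was -5.89 (SE 0.16), a level 59.3 times higher in mock. That of Ahsg was -5.95 (SE 0.22), or 61.9 times, against a group with 1 array below the threshold. Against a group wholly below the threshold only a bound is given, from the lowest normalized intensity above it on each array. Every such "at least" value in this report holds on the quantile normalized scale alone. On that scale Ttr was at least 108-fold higher in mock and Fabp1 at least 50.9-fold higher, bounds of 6.75 and 5.67 in log2. The fitted log2 differences were -7.23 (SE 0.19) and -6.19 (SE 0.11). Under median scaling they were -5.94 and -4.63, smaller in size than these bounds.

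Diabetic mock arrays were also below normal mock arrays for all 4 genes without overlap, in a comparison that uses the same normal mock arrays and in which 3.82% of probes were called lower. Alb was 153 times higher in normal mock, at a log2 difference of -7.26, and Ahsg 81.4 times higher, at -6.35, against 3 arrays at the edge of detection. With the diabetic mock array below the threshold set to it, the Ahsg fold was 79.2. On the quantile normalized scale Ttr was at least 133-fold higher in normal mock and Fabp1 at least 62.7-fold higher, bounds of 7.05 and 5.97 in log2. Median scaling gave fitted log2 differences of -6.17 and -4.77, smaller in size than these bounds. Disease state, sex and the tissue content described below differ together between these groups and cannot be told apart.

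Among diabetic mice the mcIRBP arrays could be compared with mock only for Alb and Ahsg, since Ttr and Fabp1 were below the threshold in both groups and have no fold. In this comparison 3.04% of probes were called lower and 3.72% higher. Alb was at least 1.07-fold higher in diabetic mock, with a fitted log2 difference of -0.68, which under cyclic loess normalization turned to 0.08. Ahsg differed by 0.45 on the log2 scale with overlapping arrays. Across the states, Alb was higher in normal mcIRBP than in diabetic mock by 1.37 on the log2 scale, though these groups overlapped relative to their thresholds. It was at least 2.77-fold higher in normal mcIRBP than in diabetic mcIRBP.

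**Figure D2:**
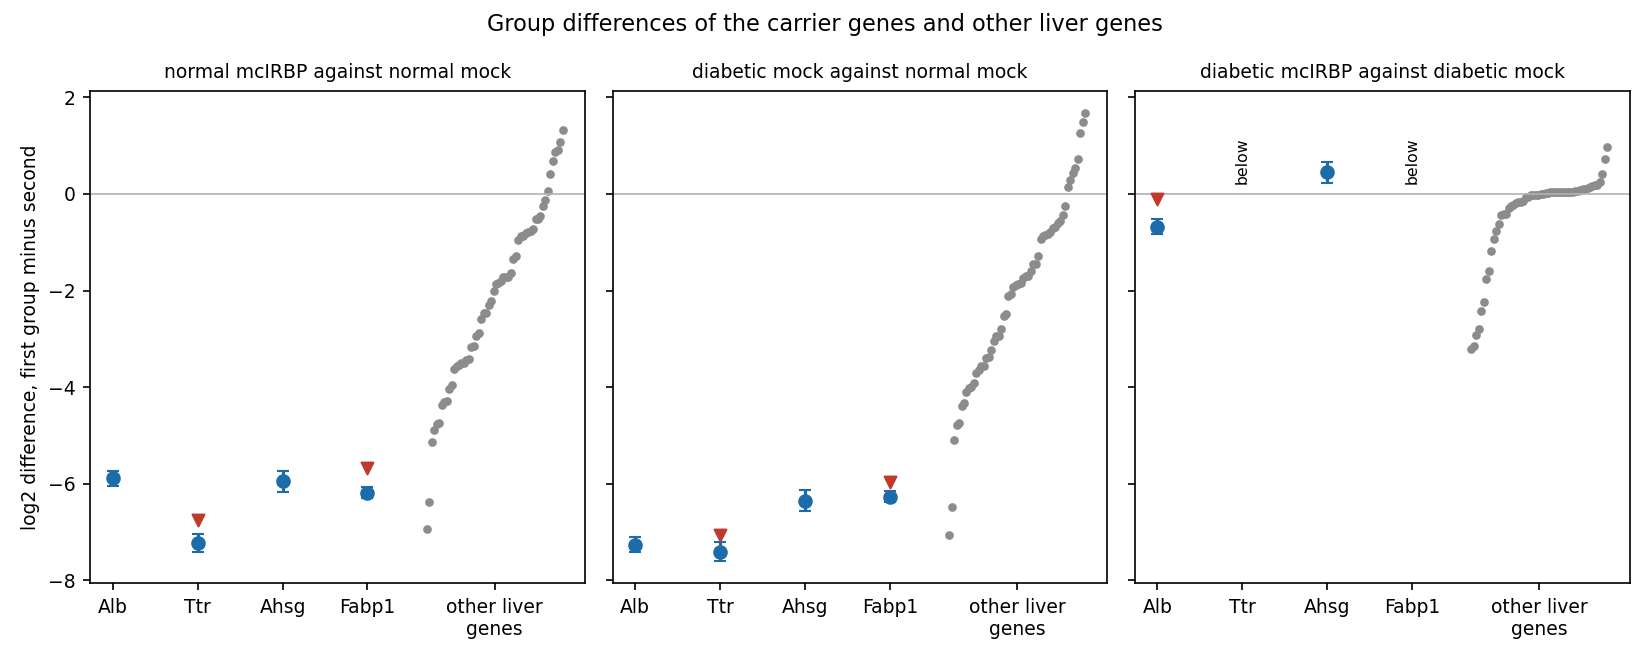
Differences of group means on the log2 scale, first group minus second, for the 4 genes (blue points with the model's SE) in 3 comparisons. Red triangles mark the bound where 1 group was below the detection threshold, "below" marks genes below it in both groups, and grey points are the fitted differences of 56 other liver genes in rising order. The 4 genes lie between -7.40 and -5.89 in both comparisons with normal mock, and Alb and Ahsg lie at -0.68 and 0.45 in the comparison within diabetic mice.

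The stretches just before the annotated starts of 3 of the 4 genes are shown because promoters of hepatocyte genes are known by the short motifs they hold. They are the 250 bases before the RefSeq start on the plus strand of GRCm38.p6, chr5:90460620-90460869 for Alb, chr16:22891765-22892014 for Ahsg and chr6:71199629-71199878 for Fabp1, written 5′ to 3′. Capitals mark matches on either strand to 3 short motifs. The motif of the C/EBP type was searched as TTNNGNAA. The motif of the FOXA type was searched as TGTTTNC and the box known as TATA, near which transcription starts in some genes, as TATAAA.
Alb: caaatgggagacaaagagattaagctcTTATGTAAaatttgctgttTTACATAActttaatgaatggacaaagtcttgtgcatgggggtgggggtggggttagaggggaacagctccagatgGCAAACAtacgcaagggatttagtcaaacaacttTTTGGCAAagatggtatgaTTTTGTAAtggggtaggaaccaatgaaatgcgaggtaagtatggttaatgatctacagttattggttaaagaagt
Ahsg: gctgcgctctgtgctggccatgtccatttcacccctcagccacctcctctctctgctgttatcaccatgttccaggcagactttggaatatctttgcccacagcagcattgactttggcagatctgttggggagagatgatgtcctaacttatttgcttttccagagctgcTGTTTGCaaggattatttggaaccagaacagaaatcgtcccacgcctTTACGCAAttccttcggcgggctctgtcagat
Fabp1: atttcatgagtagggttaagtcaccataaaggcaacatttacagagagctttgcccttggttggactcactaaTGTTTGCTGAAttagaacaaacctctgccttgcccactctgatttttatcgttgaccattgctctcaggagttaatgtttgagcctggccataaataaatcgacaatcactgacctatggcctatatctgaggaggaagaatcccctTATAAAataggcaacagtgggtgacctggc

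The Alb stretch held 4 C/EBP-type matches, whose first bases lay 223, 204, 94 and 75 bases before the start and 1 FOXA-type match at 128. The Ahsg stretch held 1 FOXA-type match at 79 and 1 C/EBP-type match at 32. The Fabp1 stretch held a FOXA-type match at 177 that overlaps a C/EBP-type match at 174, and a TATA box at 30. All 3 stretches held both C/EBP-type and FOXA-type matches, and both motifs are short and common. Whether these matches bear on the levels of the genes was not tested. In the same 250 bases of all 32851 promoter entries, 36.8% held the C/EBP-type motif, 17.8% the FOXA-type and 12.4% the TATA box. AAAGTCCA, an HNF4-type motif that 1.01% of the entries held, had no match in the 3 stretches.

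**Figure D3:**
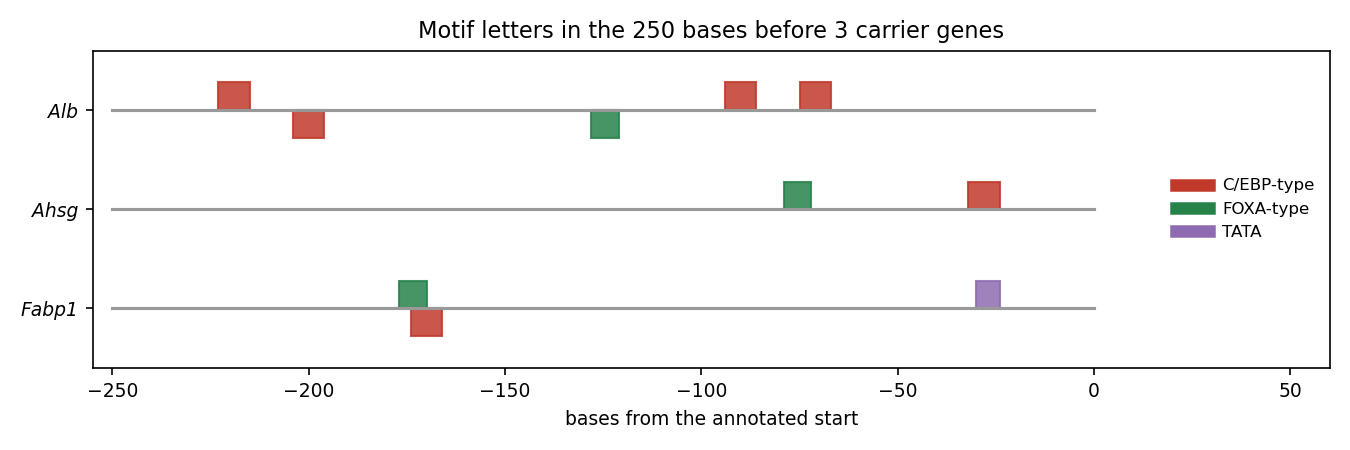
Positions of motif matches in the 250 bases before the annotated start of Alb, Ahsg and Fabp1, in bases from the start, coloured by motif. C/EBP-type and FOXA-type matches appear in all 3 genes and the TATA box in Fabp1.

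The relatives of the 4 genes were measured on the same arrays. Of the albumin family, afamin (Afm), a vitamin E binding plasma protein, was above the threshold on 2 normal mock arrays and nowhere else. Its mean log2 level was 7.37 in normal mock, where not every array was above the threshold. The means of normal mcIRBP and diabetic mock, wholly below it, were 5.71 and 5.80. Afm was named only through normal mock, so no fold and no test is given. Alpha-fetoprotein (Afp), which the fetal liver makes, was below the threshold on all 12 arrays, and the vitamin D carrier Gc had no probe.

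In the cystatin superfamily, fetuin-B (Fetub), a plasma protease inhibitor closely related to fetuin-A, was dim. It was above the threshold on the 3 normal mock arrays, at raw intensities of 103 to 151, and on no other. Normal mock was at least 2.55-fold above normal mcIRBP and at least 3.14-fold above diabetic mock. Fetub was named for being above the threshold, which only normal mock arrays were, so no test is given. Kininogen 1 (Kng1), the precursor of bradykinin, fell from 10.89 ± 0.77 in normal mock to 6.64 ± 0.45 in normal mcIRBP (log2 difference -4.25, limma adjusted p = 2.88e-05) and was at 5.94 ± 0.03 in diabetic mock (limma adjusted p = 7.53e-06 against normal mock). Cystatin C (Cst3), a protease inhibitor that most cells secrete, went the other way, from 11.78 ± 0.30 to 13.71 ± 0.64 (log2 difference 1.93, limma adjusted p = 0.00266). Histidine-rich glycoprotein (Hrg) was above the threshold on 1 array, of the diabetic mcIRBP group.

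Of the other fatty acid binding proteins, the adipocyte form Fabp4 was above the threshold on 11 of the 12 arrays. Its log2 levels were 10.62 ± 0.33 in normal mock, 9.80 ± 0.56 in normal mcIRBP, 10.46 ± 0.20 in diabetic mock and 7.89 ± 1.80 in diabetic mcIRBP, and none of the 3 comparisons passed the test (limma adjusted p = 0.534 for mcIRBP against mock in normal mice, 0.0648 in diabetic mice and 0.910 between the mock groups). The heart and muscle form Fabp3 was above the threshold on 1 normal mcIRBP and 1 diabetic mock array, and the epidermal form Fabp5 on 2 normal mcIRBP and 3 diabetic mock arrays. Fabp2, the intestinal form, and Fabp6, Fabp7, Fabp9 and Fabp12 were below it on all 12 arrays.

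Among the partners of transthyretin, retinol-binding protein 4 (Rbp4), which binds it in plasma, was above the threshold on all 12 arrays, whereas Ttr was above it in 1 group. Rbp4 log2 levels were 12.75 ± 0.10 in normal mock, 11.90 ± 0.44 in normal mcIRBP, 11.12 ± 0.05 in diabetic mock and 7.32 ± 0.23 in diabetic mcIRBP. It fell by 0.85 on the log2 scale in normal mcIRBP (limma adjusted p = 0.0273) and by 3.81 in diabetic mcIRBP (limma adjusted p = 8.29e-07). Both fat and liver are known to make it. Dio1, a deiodinase that activates thyroxine in liver and kidney, was above the threshold on 1 normal mock array and on no other. Its mean log2 levels were 7.07 in normal mock and 5.89 in normal mcIRBP. Dio1 was named only through that array, so no fold and no test is given. The thyroid hormone binding protein Crym was above it on 2 diabetic mock arrays, and the receptors Stra6 and Thrb, the globulin Serpina7 and the intestinal Rbp2 on none.

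Liver genes outside these families moved with the 4 genes in number. Of 56 genes measured, 21 plasma carriers and 35 hepatocyte enzymes or transporters, 38 fell and 1 rose in normal mcIRBP against normal mock, where 1 carrier (Igfbp2) and 1 transporter (Slc10a1) among the 38 were below the threshold in both groups. Over all probes 2.71% were lower and 3.46% higher, that is 811 and 1034 probes, and the 56 genes had a median log2 difference of -1.93 against -0.0039 for all probes. Under median scaling the split over all probes was 261 lower and 31 higher. In diabetic mock against normal mock 38 of the 56 were lower and 4 higher, where 3.82% of probes (1143) were lower and 4.57% (1367) higher, a split that median scaling moved to 5019 and 10073. Among these 38, Slc10a1 was again below the threshold in both groups compared. In diabetic mcIRBP against diabetic mock 8 were lower and 1 higher, against 3.04% (911) and 3.72% (1114) of all probes, with a median of -0.0068. Under median scaling 15 of the 56 were lower, where 3267 of all probes were lower and 783 higher. The lists were drawn up with earlier results of these data known.

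Of the 35 enzymes and transporters, 25 exceeded the threshold throughout normal mock, 5 throughout normal mcIRBP, 11 throughout diabetic mock and 6 throughout diabetic mcIRBP. Over all probes 7.11%, 15.6%, 31.7% and 14.1% did so, and outside normal mock the counts lay near these shares. In normal mcIRBP 27 fell and 0 rose, beside 2.71% and 3.46% of all probes. Adh1, the alcohol dehydrogenase of liver, fell from 11.49 ± 0.31 to 9.03 ± 0.68 (log2 difference -2.46, limma adjusted p = 0.000811). The cytochrome Cyp2e1, by contrast, was at 12.17 ± 0.81 in normal mock and 12.86 ± 0.15 in normal mcIRBP (limma adjusted p = 0.238), rose by 1.68 in diabetic mock against normal mock (0.0100) and fell by 3.21 in diabetic mcIRBP (0.000121). Fah, the last enzyme of tyrosine breakdown, and Aldh1l1, of folate metabolism, were above the threshold on all normal mcIRBP arrays and did not pass the test there (limma adjusted p = 0.426 and 0.710). Chosen after their values were seen, Cps1, the first enzyme of the urea cycle, and Mat1a, the liver's methionine adenosyltransferase, were above the threshold on normal mock arrays alone, and at least 10.9-fold and at least 24.2-fold lower in normal mcIRBP. Their selection on this pattern leaves no test of it.

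Of the 21 other plasma carriers 17 exceeded the threshold throughout normal mock and 10 throughout normal mcIRBP, beside 7.11% and 15.6% of all probes. Between these groups 11 fell and 1 rose, beside 2.71% and 3.46% of all probes. The 4 brightest over the arrays were above the threshold on all 12, unlike Alb. Haptoglobin (Hp), which binds free haemoglobin, was at 12.31 ± 0.28 in normal mock, 12.37 ± 0.30 in normal mcIRBP, 13.03 ± 0.07 in diabetic mock and 11.26 ± 0.08 in diabetic mcIRBP, and fell in the last against diabetic mock (log2 difference -1.77, limma adjusted p = 6.98e-05). Selenoprotein P (Sepp1), the selenium carrier, was at 13.57 ± 0.07 in normal mock and 12.23 ± 1.95 in normal mcIRBP, and the iron carrier transferrin (Trf) at 12.45 ± 0.64 and 9.98 ± 2.39. Both spread widely over the normal mcIRBP arrays and neither passed the test (limma adjusted p = 0.339 and 0.160). Leucine-rich alpha-2-glycoprotein (Lrg1), an acute-phase plasma protein, was at 9.78 ± 0.47 and 10.70 ± 0.43 (limma adjusted p = 0.0563) and fell by 1.59 in diabetic mcIRBP (0.00252).

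Hepatocyte transcription factors were fewer above the threshold, 6 of 25 throughout normal mock and 5 throughout normal mcIRBP, beside 7.11% and 15.6% of all probes. In normal mcIRBP 7 were lower and 0 higher, beside 2.71% and 3.46% of all probes. Of those 7, Nr0b2, Nr1i3 and Onecut1 were below the threshold in both groups and have no fold. Hnf4a, a nuclear receptor central to hepatocyte genes, was above the threshold on the 3 normal mock arrays, at raw intensities of 170 to 252, and on no other array. It was at least 5.82-fold lower in normal mcIRBP and at least 7.18-fold lower in diabetic mock. Its mean over all arrays, by which Hnf4a was named, was raised by normal mock alone, so no test is given. Foxa3, picked after its values were seen and so with no test, was above the threshold on the same 3 arrays alone and at least 3.03-fold lower in normal mcIRBP. Cebpa and Cebpb, which fat cells use as well, were instead above the threshold on all arrays of 3 groups or more. Cebpa was at 8.03 ± 0.39 in normal mock, 8.15 ± 0.51 in normal mcIRBP and 7.99 ± 0.06 in diabetic mock, and it was at least 2.997-fold lower in diabetic mcIRBP than in diabetic mock (limma adjusted p = 0.000611). Tef, a factor of the daily clock, was at 8.42 ± 0.14 in normal mock and 7.91 ± 1.23 in normal mcIRBP (limma adjusted p = 0.554).

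Fabp1 is also known as a target of PPARalpha, the fatty acid sensor of liver. Of 18 other PPARalpha targets measured, 4 fell and 1 rose in normal mcIRBP, 6 were lower and 1 higher in diabetic mock against normal mock, and 7 fell and 0 rose in diabetic mcIRBP. Over all probes 2.71%, 3.82% and 3.04% were lower and 3.46%, 4.57% and 3.72% higher in these comparisons. Of the 6 lower in diabetic mock, Vnn1 was below the threshold in both mock groups. The median log2 differences of the 18 were -0.06, 0.0027 and -0.93. In diabetic mcIRBP against diabetic mock 19 of 25 adipose genes were lower (median -2.50) and 24 of 28 epididymis genes higher (median 4.22), and Cd36 stands in both the PPARalpha and the adipose list. The part of these tissues in the targets' values was not tested. Angptl4, a secreted inhibitor of lipoprotein lipase, rose from 11.36 ± 0.30 to 12.61 ± 0.41 in normal mcIRBP (limma adjusted p = 0.00596) and fell by 2.74 in diabetic mcIRBP (2.22e-05). The fatty acid oxidation enzymes Acadm and Acadl were at log2 differences of -0.30 and 0.05 in normal mcIRBP (limma adjusted p = 0.631 and 0.945) and fell in diabetic mcIRBP, at -3.40 and -2.42 (0.000123 and 0.00147). The lipid droplet protein Plin2 did not pass the test in either (0.0695 and 0.0517).

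The labelled tissue was set against tissue markers, since these carriers are known mainly as products of the liver. The share of all probes above the threshold on all 3 arrays was 7.11% in normal mock, 15.6% in normal mcIRBP, 31.7% in diabetic mock and 14.1% in diabetic mcIRBP, and the counts of each list stand beside it. Of 35 genes of skeletal muscle, 1 exceeded the threshold on every normal mock array, and 1, 9 and 3 did so in the mcIRBP group of normal mice, in diabetic mock and in the diabetic mcIRBP group. The summed normalized level of the muscle list was 2961 to 3476 in normal mock, 2546 to 3059 in normal mcIRBP, 2324 to 2458 in diabetic mock and 2408 to 2815 in diabetic mcIRBP. In this and every later sum, a probe below the threshold still adds its background level. Sums of lists that differ in size are therefore not comparable with each other. The hepatocyte enzyme list summed to 24670 to 31260 in normal mock, 10520 to 13330 in normal mcIRBP, 17480 to 19940 in diabetic mock and 4464 to 4815 in diabetic mcIRBP. Much of that sum was Cyp2e1, whose mean was highest in diabetic mock. Without it, a sum taken after the values were seen, the other 34 genes gave 21270 to 22460 in normal mock, 3145 to 5166 in normal mcIRBP, 3943 to 4432 in diabetic mock and 2878 to 3389 in diabetic mcIRBP. The part of tissue content in the carriers' values was not tested.

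Adipose genes were present throughout, with 18 of 25 exceeding the threshold throughout normal mock, 21 throughout normal mcIRBP, 24 throughout diabetic mock and 11 throughout diabetic mcIRBP. Their summed level was 52310 to 63030 in normal mock, 86320 to 100800 in normal mcIRBP, 79770 to 81010 in diabetic mock and 10940 to 12210 in diabetic mcIRBP. Epididymis genes summed to 2766 to 3141, 2414 to 4598, 6871 to 7939 and 110600 to 122400 in the same order, with 2, 2, 21 and 25 of 28 above the threshold. Pancreas acinar genes were above it for 0, 0, 9 and 10 of 10. The part of these tissues in the values was not tested either.

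Markers of other liver cells were measured as well. Of these, 2 of 8 for Kupffer cells, the macrophages of liver, exceeded the threshold throughout normal mock, as did 2 of 7 for sinusoidal endothelium, 1 of 8 for stellate cells and 0 of 9 for bile duct. The Kupffer list summed to 887 to 944 in normal mock and 883 to 1127 in normal mcIRBP, which overlap. The sinusoidal endothelium list summed to 859 to 965 and 607 to 817 in the same order, without overlap. Stellate cell sums of 2486 to 5664 and 830 to 12350 overlapped, as did bile duct sums of 598.5 to 705 and 592 to 648. For other tissues known to make a carrier, 1 of 14 small intestine genes, 0 of 9 choroid plexus genes and 0 of 10 islet genes exceeded the threshold throughout normal mock, beside 7.11% of all probes. Their part in the carriers' values was not tested. The small intestine list summed to 1163 to 1203 in normal mock, 804 to 841 in normal mcIRBP, 864.5 to 890 in diabetic mock and 1104 to 1151 in diabetic mcIRBP. Against normal mock, 2 of its genes were lower and 0 higher in normal mcIRBP, beside 2.71% and 3.46% of all probes. In diabetic mock 2 were lower and 1 higher, beside 3.82% and 4.57%. Fabp2, called lower in both, and Fabp6 were below the threshold on every array.

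**Figure D4:**
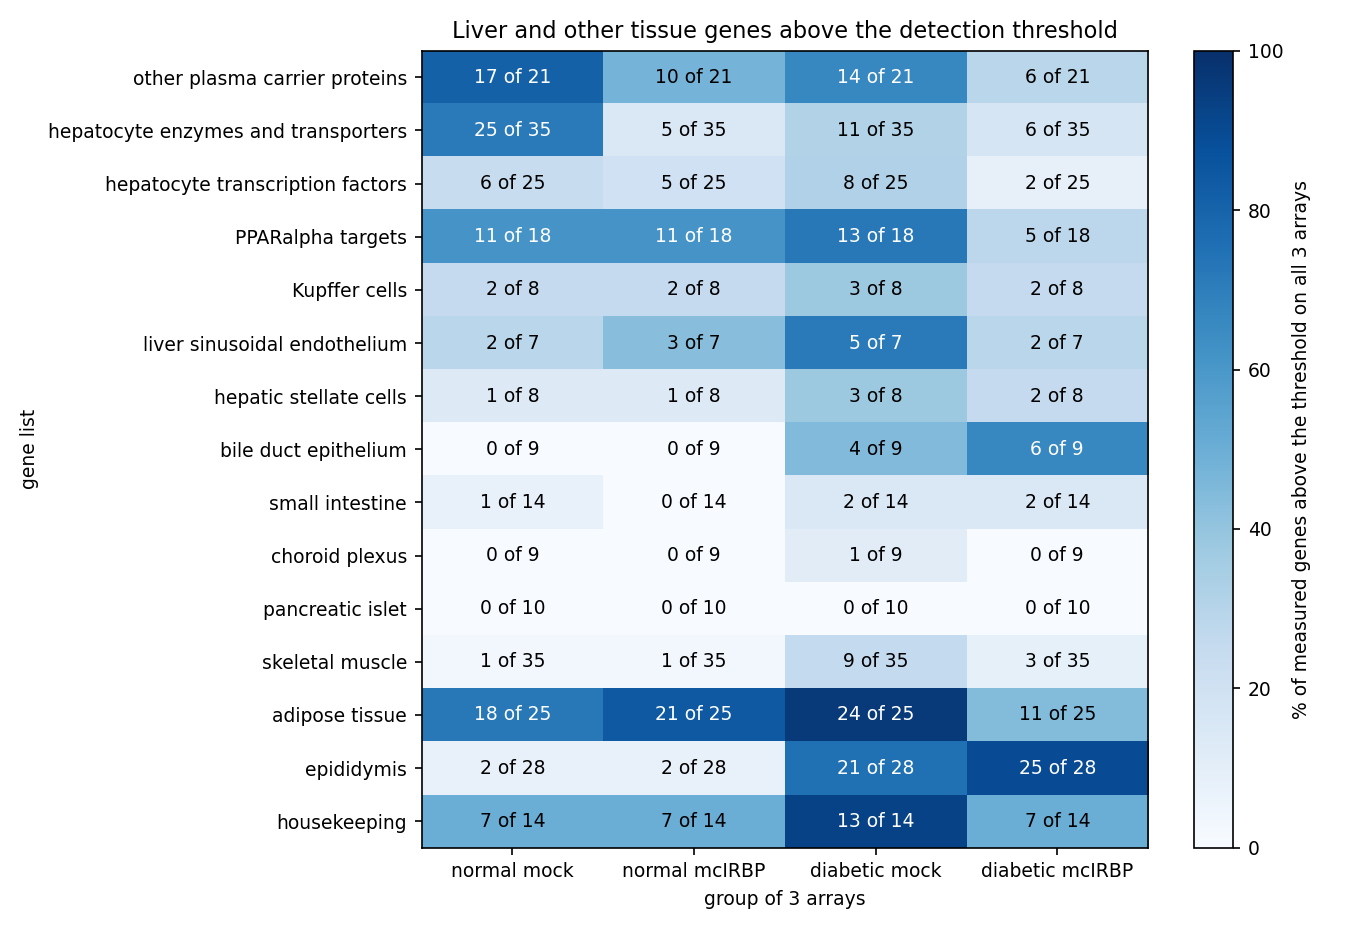
Number of genes above the detection threshold on all 3 arrays of a group, of those measured, for 15 gene lists (rows) and the 4 groups (columns). Colour is the percent of the list. In normal mock 25 of 35 hepatocyte enzymes and transporters and 1 of 35 skeletal muscle genes are above it, and in normal mcIRBP 5 and 1. Over all probes 7.11% and 15.6% are above it in these groups.

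Albumin is taken up and recycled by other cells, and 12 genes of that route were measured, with 1 higher and 1 lower in normal mcIRBP against normal mock, and 1 higher and 3 lower in diabetic mcIRBP against diabetic mock. Over all probes 3.46% were higher and 2.71% lower in the first comparison and 3.72% and 3.04% in the second. Of those called, Gp1ba in the first and Lrp2, the 1 higher in the second, were below the threshold in both groups.

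The genes with the profiles nearest to the 4 carriers were found among 16674 other genes by the root mean square difference of log2 levels over the 12 arrays, each probe centred on its own mean. For Alb they were Apoc3 (0.689), Apoa2 (0.721), Ttr (0.730), Mup3 (0.764) and Hamp (0.787), where the median gene was at 3.15. For Ttr they were Apoa2 (0.237), Hamp (0.453), Serpinc1 (0.495), Fabp1 (0.513) and Serpina1e (0.529), against a median of 3.20. Each of these encodes a protein that the liver is known to secrete, except Fabp1.

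For Ahsg the nearest were Apoa1 (0.296), Serpinc1 (0.367), Fabp1 (0.367), Hamp (0.369) and Apoc3 (0.398), with a median gene at 2.66. For Fabp1 they were Serpinc1 (0.115), Hamp (0.136), Serpina1e (0.295), Apoc3 (0.317) and Ahsg (0.367), with a median gene at 2.71. Apoa1, Apoa2 and Apoc3 are apolipoproteins of plasma lipoproteins, Serpinc1 is antithrombin, and Hamp is hepcidin, the hormone that lowers iron uptake. Mup3, a major urinary protein, and Serpina1e, an alpha-1-antitrypsin, belong to families of near-identical genes, so which copy their probes read is uncertain.

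Among the 4 carriers the same measure was 0.367 for Ahsg and Fabp1, 0.513 for Ttr and Fabp1 and 0.697 for Ttr and Ahsg, and for Alb 0.730 with Ttr, 0.828 with Fabp1 and 0.913 with Ahsg. Since Ttr and Fabp1 were below the threshold outside normal mock, these distances and those to other genes largely give how far each probe rose above its floor there. Alb also differed from the other carriers in remaining above the threshold on all normal mcIRBP and all diabetic mock arrays.

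**Figure D5:**
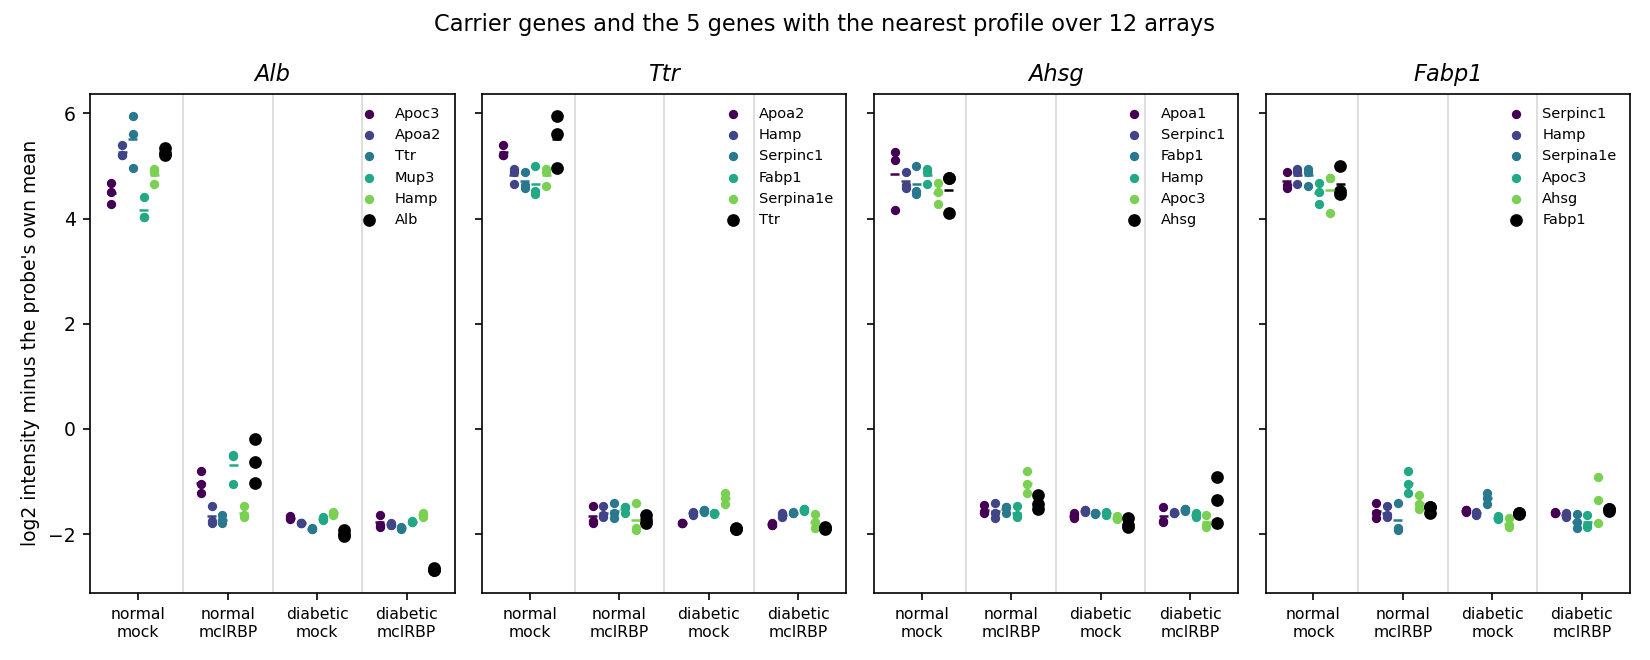
Log2 intensity minus the probe's own mean over the 12 arrays for each carrier (black) and its 5 nearest genes (colours), 1 point per array and a short line at each group's mean. All genes shown are high on the 3 normal mock arrays and low on the others, and Alb has its lowest values in diabetic mcIRBP.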

How the data were processed

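RNA of 12 samples was measured on 1-colour Cy5 arrays of 29922 probes. The deposited array files give a raw intensity and a normalized intensity per probe on a linear scale; per the submitters' processing notes the authors used limma, with no version, and no source used here records a background step. The deposited normalized intensity was made separately for each disease state, so the raw intensity was used.

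Raw intensities were background corrected (normexp, offset 50), quantile normalized over all 12 arrays with limma 3.58.1 (R 4.3.3) and converted to log2. A model with 1 mean per group and 8 residual degrees of freedom was fitted to all probes, calls were made at a Benjamini-Hochberg adjusted p under 0.05, and the fit was tested on simulated data. "Rose" and "fell" refer to this test. Quantile normalization assumes like distributions, while 2546 to 12451 probes per array were above the threshold. Gene symbols came from the platform annotation (21020 probes with 1 symbol, 8902 with none). Positions and promoters came from RefSeq on GRCm38.p6, with promoters for 3 of the 4 carriers.

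The carriers and 23 gene lists (327 of 382 genes with a probe) were chosen with earlier results of these data known. Genes named were the carriers, all family members above the threshold on any array, the 4 brightest genes of the other liver lists and the 5 nearest profiles. Of several probes of a gene, the one with the highest mean was used. Same-numbered arrays did not deviate together (correlations -0.34 to 0.25), so the numbers were not taken to pair arrays. No 2 arrays held identical values.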

Additional observations from a re-analysis of the deposited data

Results flagged for a closer look

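None of the 4 carriers was flagged; groups of 3 arrays were not tested for outlying arrays. For 3 named genes every mcIRBP array lay above every mock array in normal mice and below in diabetic mice. The difference between the 2 effects was not tested. It was 2.51 on the log2 scale for Lrg1 (0.92 in normal and -1.59 in diabetic mice), 1.33 for Cebpb (0.61 and -0.72) and 3.99 for Angptl4 (1.24 and -2.74). Neither change of Cebpb passed the test (limma adjusted p = 0.155 and 0.108), nor did that of Lrg1 in normal mice (0.0563).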

How the results depend on the processing

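The 4 carriers stayed lower in normal mcIRBP and in diabetic mock than in normal mock under every alternative run. Of 256 values of their differences 209 moved by less than the spread between arrays, 46 by more and 1 reversed. The replicate block, the fit of the 6 arrays compared and the filter of probes cannot move a difference of group means. Their values are among the 209 by construction. The cause of the changes below was not tested. In normal mcIRBP against normal mock, Alb was -5.89 and became -4.93 under median scaling, -5.45 with quantiles within each state and -5.36 in the deposited normalized intensity. With normexp offset 16, median scaling, cyclic loess, within-state quantiles and the deposited values in turn, Ttr (-7.23) was -8.49, -5.94, -6.73, -6.43 and -6.45, Ahsg (-5.95) was -6.67, -4.40, -5.22, -5.38 and -5.40, and Fabp1 (-6.19) was -7.51, -4.63, -5.36, -5.36 and -5.45. Leaving out 1 array gave -6.14 to -5.72, -7.57 to -7.03, -6.22 to -5.82 and -6.37 to -5.94 for Alb, Ttr, Ahsg and Fabp1. In diabetic mock against normal mock, Alb (-7.26) was -7.93 with offset 16, -5.74 with median scaling and -7.70 with cyclic loess; with offset 16 and median scaling Ttr (-7.40) was -8.95 and -6.17, Ahsg (-6.35) -7.39 and -4.64, and Fabp1 (-6.27) -7.71 and -4.77. Leaving out 1 array gave -7.32 to -7.18, -7.76 to -7.20, -6.64 to -6.16 and -6.45 to -6.02. In diabetic mcIRBP against diabetic mock, Alb (-0.68) was -1.31 with offset 16, -1.06 with median scaling, -0.88 within state, -0.93 in the deposited values and 0.084, reversed, with cyclic loess; Ahsg (0.45) was 0.77 with offset 16 and 1.04 with cyclic loess. Leaving out 1 array gave -0.72 to -0.55 and 0.24 to 0.66. At a threshold of 3 SD Ahsg was above it on 3 normal mcIRBP arrays, where the report gives 2.

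The number of called probes depended more on the processing. For normal mcIRBP against normal mock it was 1845, and 292 (31 higher, 261 lower) with median scaling, 516 (118 and 398) with cyclic loess, 1053 within state, 1012 in the deposited values, 616 (145 and 471) with array weights and 549 (160 and 389) in a fit of the 6 arrays compared. For diabetic mcIRBP against diabetic mock it was 2025, and 4050 (783 and 3267), 3158 (1788 and 1370), 3901 (1855 and 2046), 3956 (1861 and 2095), 6954 (3249 and 3705) and 4230 (1702 and 2528) in the same order. For diabetic mock against normal mock it was 2510, and 15092 (10073 and 5019) with median scaling, with splits of 1067 and 1084 under cyclic loess, 620 and 1085 with array weights and 1880 and 919 in the fit of 6 arrays. Keeping the 10930 probes above the threshold on 3 or more arrays gave 1050 higher and 517 lower in normal mcIRBP, and moved the median of all probes to 0.14. Leaving out 1 array gave 1406 to 2813 calls in normal mice, the highest without normal mock replicate 1. It gave 1277 to 2585 in diabetic mice and 1107 to 3522 between the mock groups; without diabetic mock replicates 1, 2 and 3 these were 1322, 1277 and 1301, and 1107, 1398 and 1133.

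Of the 56 other liver genes, 38 were lower in normal mcIRBP (38 to 41 with 1 array left out) and 38 in diabetic mock (38 to 41). The count in normal mcIRBP was 31 with median scaling, 33 with cyclic loess and 34 in the fit of 6 arrays. In diabetic mock it was 37, 38 and 41 in the same order. Keeping only probes above the threshold on 3 or more arrays gave 33 in each. The 8 lower in diabetic mcIRBP were 15 with median scaling, 5 with cyclic loess, 13 within state, 13 in the deposited values, 19 with array weights and 14 in the fit of 6 arrays, and 6 to 11 with 1 array left out. With the replicate number as a block the calls were 1463, 1749 and 1844 in the 3 comparisons, and the liver counts 38, 8 and 38. The carriers' differences in normal mice were -5.89, -7.23, -5.95 and -6.19, which this balanced block cannot move.

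The 3 arrays per group limit the precision, and the threshold limits what can be seen: Ttr and Fabp1 have no measured level outside normal mock.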
